A study of Mus musculus with 7 samples.

Results

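Antigen presentation and costimulation were followed through 7 genes in RAW264.7 cells, a mouse macrophage-like line. The genes were B2m, Tap1, Tap2, Tapbp and Nlrc5 for the class I pathway, H2-DMa for the class II pathway, and Cd86 for costimulation. They were listed by name and not picked by a threshold on these arrays, but earlier results of these data were known when they were chosen. All 7 were among the 9999 genes that could be named. Where a gene had several probe sets, the one with the highest mean signal stood for it.

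The wild-type group held 3 arrays of untreated RAW264.7 cells, and the other group held 4 arrays of untreated cells whose genotype label reads RAW GfI1-1 and which the series title calls a Gfi1 knockout. Gfi1 is a transcriptional repressor of blood cells. The labels do not say how Gfi1 was edited, or whether the 4 knockout arrays came from 1 clone or several. Replicates are called biological with no word on separate cultures. The p-values therefore cover array-to-array spread alone, which may be technical. Knockout here means an array so labelled.

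Class I molecules display peptides from inside the cell to CD8 T cells. B2m is the light chain of these molecules, Tap1 and Tap2 form the transporter that carries peptides into the endoplasmic reticulum, Tapbp (tapasin) holds the empty molecule beside that transporter, and Nlrc5 is a nuclear protein that switches on class I genes. Class II molecules display peptides from engulfed material to CD4 T cells, and H2-DMa is a chain of H2-DM, which exchanges the placeholder peptide of class II for others. Cd86 is a surface ligand of CD28 and CTLA4 that gives T cells their second signal. Macrophages carry class I molecules at rest, and interferon raises class I and class II genes in them.

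The class I members Tap1, Tapbp and B2m are shown by the 250 bases before their start, from RefSeq on GRCm38.p6, because they are the class I members with an unambiguous promoter entry, and their knockout levels are compared. Of the 7 members, 4 had an entry in this promoter table. Capitals mark motif matches on either strand. The lines below run 5′ to 3′ on the plus strand and lie at chr2:122147437-122147686 for B2m, chr17:34187306-34187555 for Tap1 and chr17:33919228-33919477 for Tapbp.
B2m: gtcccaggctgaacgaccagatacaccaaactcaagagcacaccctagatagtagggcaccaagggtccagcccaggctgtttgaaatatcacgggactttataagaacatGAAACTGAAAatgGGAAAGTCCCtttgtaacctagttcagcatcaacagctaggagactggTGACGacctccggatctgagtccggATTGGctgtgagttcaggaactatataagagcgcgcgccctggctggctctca
Tap1: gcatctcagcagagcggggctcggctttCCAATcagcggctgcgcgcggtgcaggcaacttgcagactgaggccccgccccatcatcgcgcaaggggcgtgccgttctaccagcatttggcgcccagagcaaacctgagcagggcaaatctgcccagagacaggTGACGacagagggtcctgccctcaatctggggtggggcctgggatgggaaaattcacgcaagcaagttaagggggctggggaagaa
Tapbp: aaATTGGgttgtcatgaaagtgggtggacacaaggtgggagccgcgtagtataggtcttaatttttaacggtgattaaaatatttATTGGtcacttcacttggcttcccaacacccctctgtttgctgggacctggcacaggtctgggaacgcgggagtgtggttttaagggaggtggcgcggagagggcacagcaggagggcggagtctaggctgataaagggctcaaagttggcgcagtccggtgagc

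The motifs searched were the interferon element GAAANNGAAA (in 3.0% of 32851 promoter windows of this length), the STAT element TTCNNNGAA (7.0%), the Y box CCAAT (33.8%), the X box core AGCAAC (12.2%), the X2 box core TGACG (17.8%) and an NF-kappaB element GGGNNNTTCC (4.6%). The last pair of motifs was added after the sequences had been read. The B2m window held 1 interferon element, 139 to 130 bases before the start, an NF-kappaB match at 126 to 117, an X2 core at 78 to 74 and a Y box at 53 to 49. The Tap1 window held an X2 core at 86 to 82 and a Y box at 222 to 218, and the Tapbp window held 2 Y boxes, at 248 to 244 and 165 to 161. H2-DMa, listed with 2 starts, had 1 Y box match at the second start. No other match of the 6 motifs was found in these windows. A match is a stretch of letters and was not tested for binding.

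The series showed structure that bears on every value here. Over the 9999 genes, the SD of the log2 difference between arrays was 0.11 to 0.17 within wild type, 0.14 between knockout replicates 1 and 2, and 0.12 between knockout replicates 3 and 4, but 0.50 to 0.51 across these pairs. No label separates the pairs. Each result is therefore given for all 4 knockout arrays and then for each pair against wild type. The pair fits leave out the spread between the pairs, and both use the same wild-type arrays. Their p-values therefore cover only the spread within a pair and within wild type, and they are not independent tests. Gfi1 itself stood at a log2 intensity of 2.66, 2.85 and 2.98 on the wild-type arrays and 4.93, 5.02, 3.97 and 3.97 on knockout replicates 1 to 4. It was thus higher in the arrays labelled knockout (limma adjusted p = 0.00447), but it exceeded only 2.15% to 3.16% of genes on the wild-type arrays, so no size is given for the difference. The labels do not place the edit, so whether this probe set lies outside it is unknown and the signal cannot check the genotype. On the wild-type arrays the 7 measured macrophage markers exceeded 48.2% (Itgam) to 99.99% (Lyz2) of genes. In knockout 5 of the 7 were lower, against 21.6% of all genes, and Itgam differed by 0.23 in replicates 1 and 2 and by -0.52 in replicates 3 and 4. The log2 of the markers' summed intensity was 14.5 in each wild-type array, 13.9 to 14.0 in knockout replicates 1 and 2, and 14.0 in replicates 3 and 4, and its part in the results below was not tested. Of 8 dendritic cell markers 1 was measured, Itgax, at a log2 intensity of 4.1 to 4.7 on the 7 arrays, and markers of B cells and T cells were not analysed here. In bulk RNA, fewer cells that express a gene and less RNA per cell cannot be told apart.

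H2-DMa and Cd86 fell in the arrays labelled knockout, Nlrc5 rose, and B2m, Tap1, Tap2 and Tapbp did not pass the test. With limma and Benjamini-Hochberg adjustment over 9999 genes, at an adjusted p of 0.05, 1 of the 7 members was higher and 2 were lower. Of all genes, 21.5% passed as higher and 21.6% as lower, so the members' counts, 1 and 2 of 7, lie near that background. The median log2 difference was 0.44 over the 5 class I members and -1.49 over H2-DMa and Cd86, against -0.01 over all genes. For 5 members, B2m, Tapbp, Nlrc5, H2-DMa and Cd86, the knockout and wild-type values did not overlap, which held for 54.5% of all genes.

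**Figure D1:**
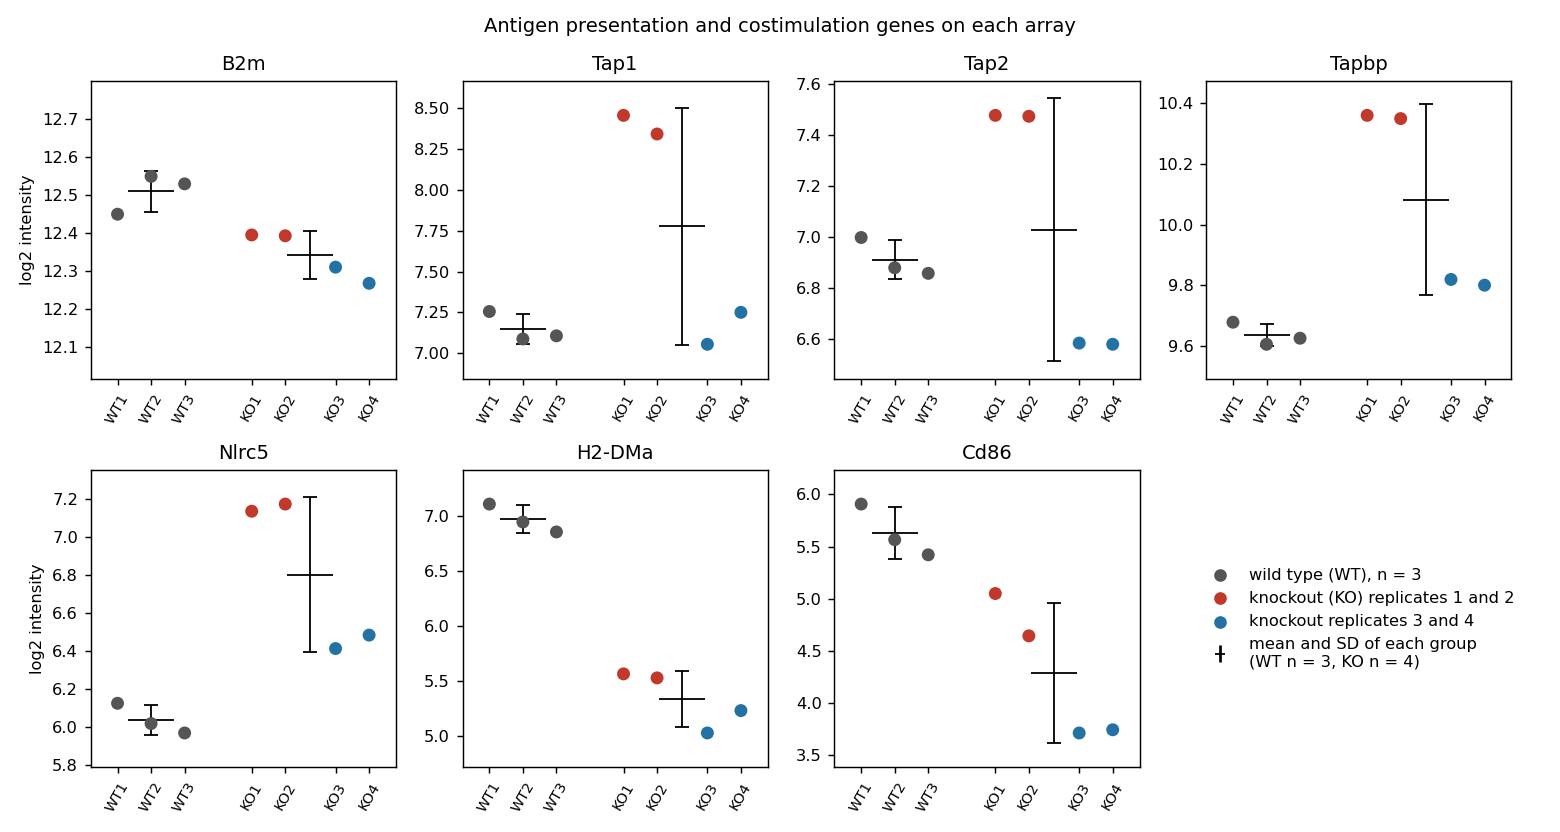
Log2 intensity of each of the 7 members on each array (points: wild type grey, knockout replicates 1 and 2 red, replicates 3 and 4 blue), with the mean and SD of the 3 wild-type and the 4 knockout arrays as black bars. The red points lie above the blue ones in all 7 panels, and for Tap1 and Tap2 the blue points lie within or below the grey ones while the red points lie above. The vertical axes differ between panels and do not start at 0.

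Tap1 had a log2 intensity of 7.26, 7.09 and 7.11 in wild-type replicates 1 to 3. In knockout replicates 1 to 4 it stood at 8.46, 8.34, 7.06 and 7.25. Replicates 1 and 2 were above every wild-type array by over 1 log2 unit, while replicates 3 and 4 lay within or just below the wild-type range. Over all 4 arrays the difference was 0.63 (SE 0.36, limma adjusted p = 0.20), with a 95% interval from -0.23 to 1.48. For replicates 1 and 2 alone against wild type it was 1.25 (SE 0.07, adjusted p = 2.18e-05), and for replicates 3 and 4 it was 0.00 (0.00275; SE 0.08, adjusted p = 0.979).

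Tap2, the partner of Tap1 in the transporter, was the member whose direction turned between the pairs. Wild-type arrays stood at 7.00, 6.88 and 6.86, and knockout replicates 1 to 4 at 7.48, 7.47, 6.59 and 6.58. The first pair lay above all wild-type arrays and the second pair lay below all of them. The difference over all arrays was 0.12 (SE 0.26, adjusted p = 0.742, interval -0.50 to 0.73). Against wild type, replicates 1 and 2 differed by 0.56 (SE 0.06, adjusted p = 0.000311) and replicates 3 and 4 by -0.33 (SE 0.06, adjusted p = 0.00425).

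Tapbp, the loading chaperone, was at 9.68, 9.61 and 9.63 in wild type and at 10.36, 10.35, 9.82 and 9.80 in knockout. All knockout arrays exceeded all wild-type arrays, but the first pair did so by far more. The difference of 0.44 (SE 0.16) missed the threshold at an adjusted p of 0.0633. By pair it was 0.72 (SE 0.05, adjusted p = 5.09e-05) and 0.17 (SE 0.05, adjusted p = 0.0273).

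Nlrc5, the transactivator of class I genes, was at 6.13, 6.02 and 5.97 in wild type and at 7.13, 7.17, 6.41 and 6.48 in knockout. It was the class I member that passed with all 4 arrays, with a difference of 0.76 (SE 0.21, adjusted p = 0.0235), a 1.70-fold rise. The call was lost without any single wild-type array (adjusted p = 0.0597, 0.0736 and 0.0802 without replicates 1, 2 and 3). Each pair passed alone, at 1.11 (SE 0.06, adjusted p = 1.94e-05) for replicates 1 and 2 and 0.41 (SE 0.07, adjusted p = 0.00216) for replicates 3 and 4.

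B2m, the class I light chain, had small differences in every knockout array. It stood at 12.45, 12.55 and 12.53 in wild type and at 12.39, 12.39, 12.31 and 12.27 in knockout, so every knockout array was slightly below every wild-type array. The difference was -0.17 (SE 0.06, adjusted p = 0.0683) with a 95% interval of -0.32 to -0.02. In replicates 3 and 4 alone it passed at -0.22 (SE 0.06, adjusted p = 0.0149), and in replicates 1 and 2 it did not, at -0.12 (SE 0.05, adjusted p = 0.107). Its intensity exceeded that of over 99% of genes on every array.

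H2-DMa, the class II peptide editor, had the largest difference of the 7. Wild-type arrays were at 7.10, 6.94 and 6.85, and knockout arrays at 5.56, 5.53, 5.03 and 5.23. Every knockout array was below every wild-type array by more than 1 log2 unit. It fell by 1.63 on the log2 scale (SE 0.15, adjusted p = 0.000235), which is 3.09-fold lower. Replicates 1 and 2 alone gave -1.42 (SE 0.08, adjusted p = 2.03e-05) and replicates 3 and 4 gave -1.84 (SE 0.10, adjusted p = 2.81e-05). H2-DMa exceeded 43.6% to 46.7% of genes in wild type but 15.0% to 20.9% in knockout. With an offset of 16 before log2 the difference was -1.32, so its size depends on the handling of low signal.

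Cd86, the costimulatory ligand, was at 5.91, 5.57 and 5.42 in wild type and at 5.05, 4.64, 3.71 and 3.74 in knockout. The knockout arrays were all below the wild-type arrays, with replicates 3 and 4 lowest. It fell by 1.35 on the log2 scale (SE 0.35, adjusted p = 0.0186), which is 2.55-fold lower, and the call was lost without wild-type replicate 1 (adjusted p = 0.0729) or 2 (0.0556). The pairs gave -0.79 (SE 0.17, adjusted p = 0.00700) and -1.91 (SE 0.14, adjusted p = 8.72e-05). In replicates 3 and 4 its intensity exceeded only 6.2% to 6.4% of genes, so the size of that fall is uncertain.

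Set side by side, the mean of the class I members and that of H2-DMa and Cd86 stood apart in every knockout array. The mean difference from wild type of the 5 class I members was 0.71, 0.70, -0.01 and 0.03 in knockout replicates 1 to 4, and that of H2-DMa and Cd86 was -0.99, -1.21, -1.93 and -1.81. The gap between these means was 1.71, 1.91, 1.92 and 1.84 in replicates 1 to 4, while in the wild-type arrays, whose own mean is the zero point, it was -0.16, 0.02 and 0.13. Each class was lower in replicates 3 and 4 than in replicates 1 and 2. These are means over chosen genes and carry no test. In replicates 3 and 4 the class I mean joins genes that passed as higher (Tapbp and Nlrc5) and as lower (B2m and Tap2). A second, dimmer probe set of Cd86 differed by -0.06 and 0.12 in replicates 1 and 2, above B2m at -0.11 and -0.12. Other genes of these classes, given below, did not all follow the same directions.

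**Figure D2:**
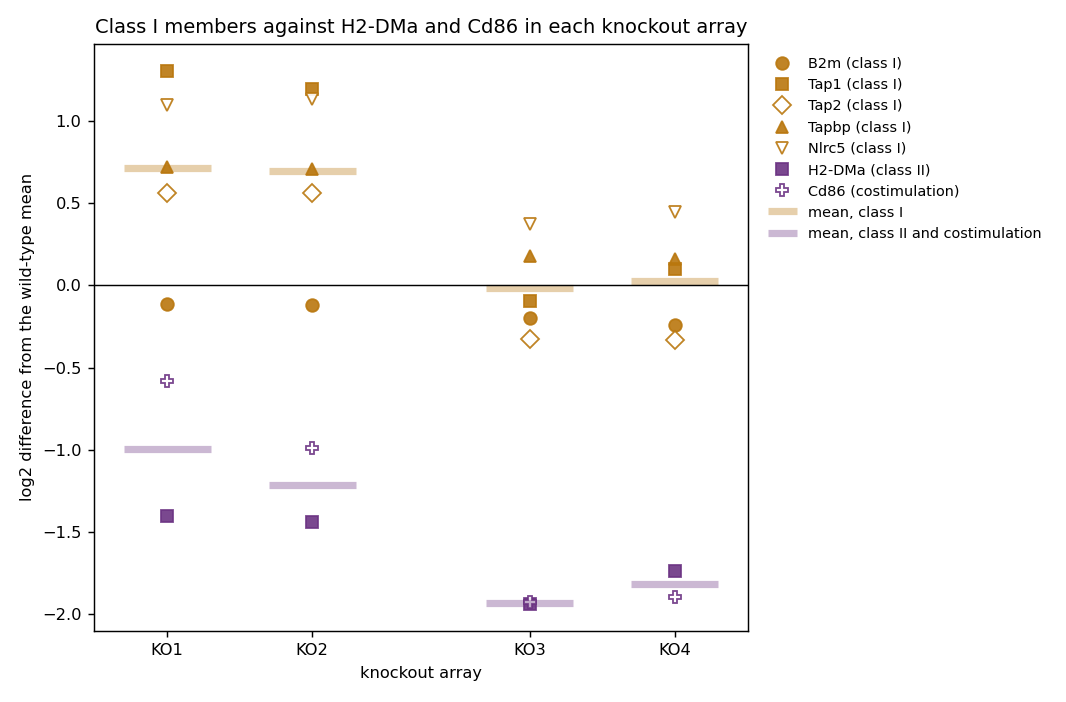
Log2 difference of each member from the wild-type mean in each of the 4 knockout arrays, class I members in brown and H2-DMa and Cd86 in purple, with the mean of each class as a bar. The class I bar lies at 0.71 and 0.70 in replicates 1 and 2 and at -0.01 and 0.03 in replicates 3 and 4, the purple bar lies between -1.93 and -0.99, and the distance between the bars is 1.71 to 1.92.

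All 7 members were higher in both of knockout replicates 1 and 2 than in both of replicates 3 and 4, which held for 42.7% of all genes. The gap between the pair means was 1.25 for Tap1, 1.12 for Cd86, 0.89 for Tap2, 0.70 for Nlrc5, 0.54 for Tapbp, 0.42 for H2-DMa and 0.10 for B2m. A gap of at least 0.5 in this direction was found for 5 members and for 9.90% of all genes, and in the opposite direction for 0 members and 10.1% of all genes. In size the gap of Tap1 exceeded that of 97.5% of genes and that of B2m 25.1%. Replicates 1 and 2 taken alone, 4 members passed as higher (Tap1, Tap2, Tapbp and Nlrc5) and 2 as lower (H2-DMa and Cd86), against 34.1% of all genes in each direction. Replicates 3 and 4 taken alone, 2 passed as higher (Tapbp and Nlrc5) and 4 as lower (B2m, Tap2, H2-DMa and Cd86), against 27.7% and 29.3% of all genes. The pairs were formed after the arrays had been seen to fall apart, so the difference between them was not tested. When wild type, the first pair and the second pair were entered as random blocks, only H2-DMa of the 7 passed (adjusted p = 0.00995), and 9.04% of all genes did. Nlrc5 and Cd86 were then at adjusted p = 0.118 and 0.156, so for them the call rests on counting all 7 arrays as independent. The 3 wild-type arrays also formed 1 block, so this fit does not single out the knockout pairs.

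B2m, Tapbp and Cd86 each had a second probe set, and for Cd86 the probe sets did not tell the same story. The dimmer Cd86 probe set stood at 5.41, 5.19 and 5.01 in wild type and at 5.14, 5.33, 2.28 and 2.37 in knockout replicates 1 to 4. Replicates 1 and 2 thus lay inside the wild-type range, and replicates 3 and 4 differed from the wild-type mean by -2.92 and -2.84, at a level above only 1.4% to 1.5% of genes. Its difference over all arrays, -1.42 (SE 0.84, adjusted p = 0.207 over all named probe sets), missed the threshold, so a fall of Cd86 in replicates 1 and 2 was seen with the brighter probe set only. For Tapbp the dimmer probe set differed from wild type by 0.79, 0.74, 0.05 and 0.38 in knockout replicates 1 to 4, again highest in the first pair. For B2m it differed by -0.07, -0.09, -0.27 and -0.32, close to the brighter probe set.

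**Figure D3:**
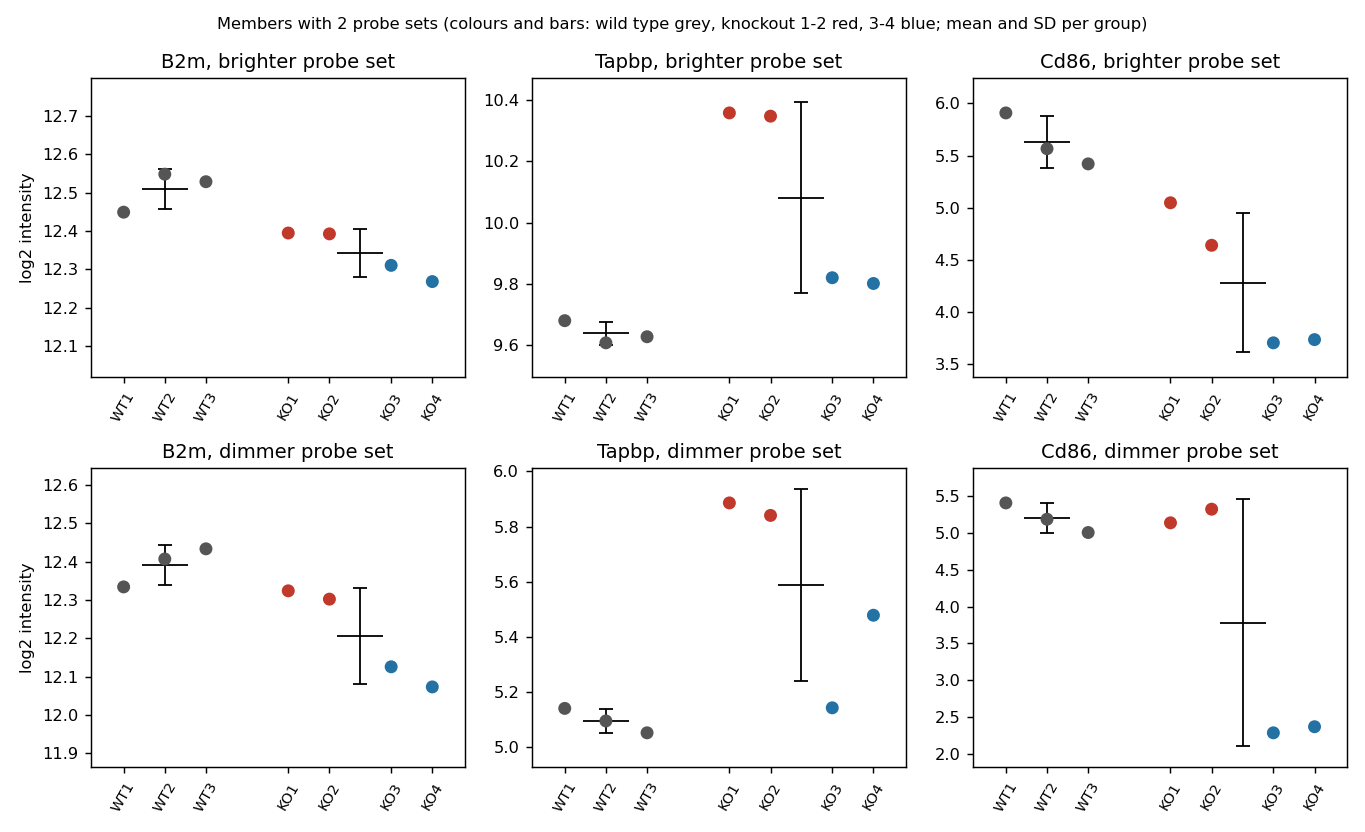
Log2 intensity on each array of both probe sets of B2m, Tapbp and Cd86 (wild type grey, knockout replicates 1 and 2 red, replicates 3 and 4 blue; black bars give the mean and SD of 3 wild-type and 4 knockout arrays). In the dimmer Cd86 probe set the red points, 5.14 and 5.33, lie among the grey ones while the blue points lie at 2.28 and 2.37.

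Other genes of the pathway were taken from a list of 80, of which 51 were measured. Of these, 9 rose, 14 fell and 28 did not pass, with a median difference of -0.10, against 21.5% of all genes higher and 21.6% lower. In the first pair alone 21 were higher and 21 lower (34.1% of all genes each way), and in the second pair 14 and 23 (27.7% and 29.3%). Both of replicates 1 and 2 were above both of replicates 3 and 4 for 30 of the 51, against 42.7% of all genes. With random blocks 4 were higher (H2-T24, Psme3, H2-Ob and Cd40) and 5 lower (Lgmn, Ifi30, Irf1, Irf2 and Icam2), and every other call below was lost.

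The classical class I heavy chain genes fell. H2-K1 fell by 0.45 on the log2 scale (SE 0.11, adjusted p = 0.0159) and H2-D1, which had the highest mean signal of this group, fell by 0.44 (SE 0.11, adjusted p = 0.0181). Both were lower in every knockout array, H2-K1 by 0.29 and 0.27 in replicates 1 and 2 and by 0.65 and 0.58 in replicates 3 and 4. The adjusted p was 0.171 and 0.178 with random blocks, and both calls were lost without wild-type replicate 1 (0.0601 and 0.0647) or 2 (0.0511 and 0.0609), and that of H2-D1 also without replicate 3 (0.0505). The probe sets of these near-identical genes can bind each other's transcripts, so they may not be separate measurements. H2-T24, a nonclassical class I gene, rose by 1.61 (SE 0.15, adjusted p = 0.000266) and in every knockout array by at least 1.34. Mr1, which presents vitamin B metabolites, rose by 0.49 (SE 0.17, adjusted p = 0.0484). The call was lost in 10 of 17 alternatives, which include leaving out any 1 wild-type array or knockout replicate 1 or 2. Its second probe set differed by 0.27, with 0.50 in the first pair and 0.04 in the second.

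Among genes that cut and load class I peptides, the sign differed between the pairs for several. The immunoproteasome subunit genes Psmb8, Psmb9 and Psmb10, named after their values were seen, differed from wild type by 0.47, 0.19 and 0.27 in replicates 1 and 2 and by -0.41, -0.71 and -0.55 in replicates 3 and 4. Of the 10 genes of this group 7 passed as higher and 2 as lower in the first pair, against 34.1% of all genes each way. In the second pair 2 passed as higher and 6 as lower, against 27.7% and 29.3%. With all arrays 2 rose and 1 fell, against 21.5% and 21.6%. Psme3, a proteasome activator subunit, rose by 0.98 (SE 0.17, adjusted p = 0.00332), but its second probe set stood at -0.06. Psme1, a subunit of another activator, rose by 0.38 (SE 0.12, adjusted p = 0.0413), a call lost without any 1 wild-type array (adjusted p = 0.0927 to 0.118) and without knockout replicate 1 or 2 (0.0817 and 0.0843). Tapbpl, a relative of tapasin, fell by 0.37 on the log2 scale (SE 0.09, adjusted p = 0.0155), a call lost without wild-type replicate 3 (0.0663). The chaperone gene Canx, with the highest mean signal of the group, had a difference of -0.20 (SE 0.08, adjusted p = 0.0711), while its other probe sets gave 0.38 and -1.35.

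Beside H2-DMa, 3 class II processing genes fell, while the invariant chain gene rose. Lgmn, a lysosomal endopeptidase, fell by 1.26 on the log2 scale (SE 0.12, adjusted p = 0.000315), Ifi30, a lysosomal thiol reductase, fell by 1.00 (SE 0.14, adjusted p = 0.00140) and Ctss, the protease that trims the invariant chain, fell by 0.57 (SE 0.06, adjusted p = 0.000390). Cd74, the invariant chain, rose by 0.43 (SE 0.07, adjusted p = 0.00223). H2-Ob, a chain of the H2-DM inhibitor H2-DO, rose by 2.06 (SE 0.11, adjusted p = 2.69e-05), yet it exceeded under 1% of genes in wild type and 7.45% to 8.79% in knockout, so the size of its rise is uncertain. In all, 2 of the 9 measured genes of this group rose and 3 fell, against 21.5% and 21.6% of all genes. The classical class II chain genes and Ciita were not analysed here.

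Of 13 other regulators, 0 rose by limma and 3 fell, against 21.5% and 21.6% of all genes. Irf1 fell by 0.72 on the log2 scale (SE 0.06, adjusted p = 0.000215), Irf2 by 0.67 (SE 0.07, adjusted p = 0.000510) and the interferon-gamma receptor gene Ifngr1 by 0.67 (SE 0.11, adjusted p = 0.00252). At an unadjusted p under 0.05, 1 of the 13 was higher (Rfxap, 0.16) and 5 were lower, with Creb1 (-1.02) and Nfyc (-0.35) beside those 3. The share of all genes at this looser threshold was not counted, so no lean is read from these counts. Irf1, a transcription factor of interferon and class I genes, fell to a like extent in all 4 knockout arrays, at -0.66, -0.75, -0.65 and -0.80. Ifngr2, with the highest mean signal of this group, had a difference of -0.21 (SE 0.10, adjusted p = 0.132).

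Among the molecules that meet T cells, Cd86 fell by its brighter probe set, within the limits given above, while Cd40 rose. Cd40, the receptor for T cell help, rose by 1.78 (SE 0.16, adjusted p = 0.000230) and was up by at least 1.52 in each knockout array. These values are from its brightest probe set, and its other probe sets gave smaller rises of 1.16 and 1.26. Pvr, a ligand of TIGIT and DNAM-1, rose by 1.18 (SE 0.15, adjusted p = 0.000951) with all 5 of its probe sets between 0.99 and 1.37. Lgals9 (galectin-9) rose by 0.92 (SE 0.30, adjusted p = 0.0422), a call lost without any 1 wild-type array (adjusted p = 0.0970 to 0.124) and without knockout replicate 1 or 2 (0.0899 and 0.0644). Icam2, an adhesion molecule, fell by 1.45 on the log2 scale (SE 0.08, adjusted p = 2.74e-05). It exceeded only 9.9% to 11.6% of genes in knockout, so the size of its fall is uncertain. Vsir, the inhibitory ligand VISTA, fell by 1.21 (SE 0.27, adjusted p = 0.0103), with -0.75 in the first pair and -1.66 in the second. Cd83, a maturation marker, differed by 1.80, 1.78, 0.37 and 0.28 in replicates 1 to 4 and missed the threshold (1.06, SE 0.42, adjusted p = 0.0801). In all, 3 of these 14 genes rose and 5 fell, against 21.5% and 21.6% of all genes. The others that fell were Cd80 (-0.58), Cd276 (-0.67) and Tnfsf9 (-0.35). Cd80 exceeded only 6.9% to 9.7% of genes in knockout, so the size of its fall is uncertain.

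**Figure D4:**
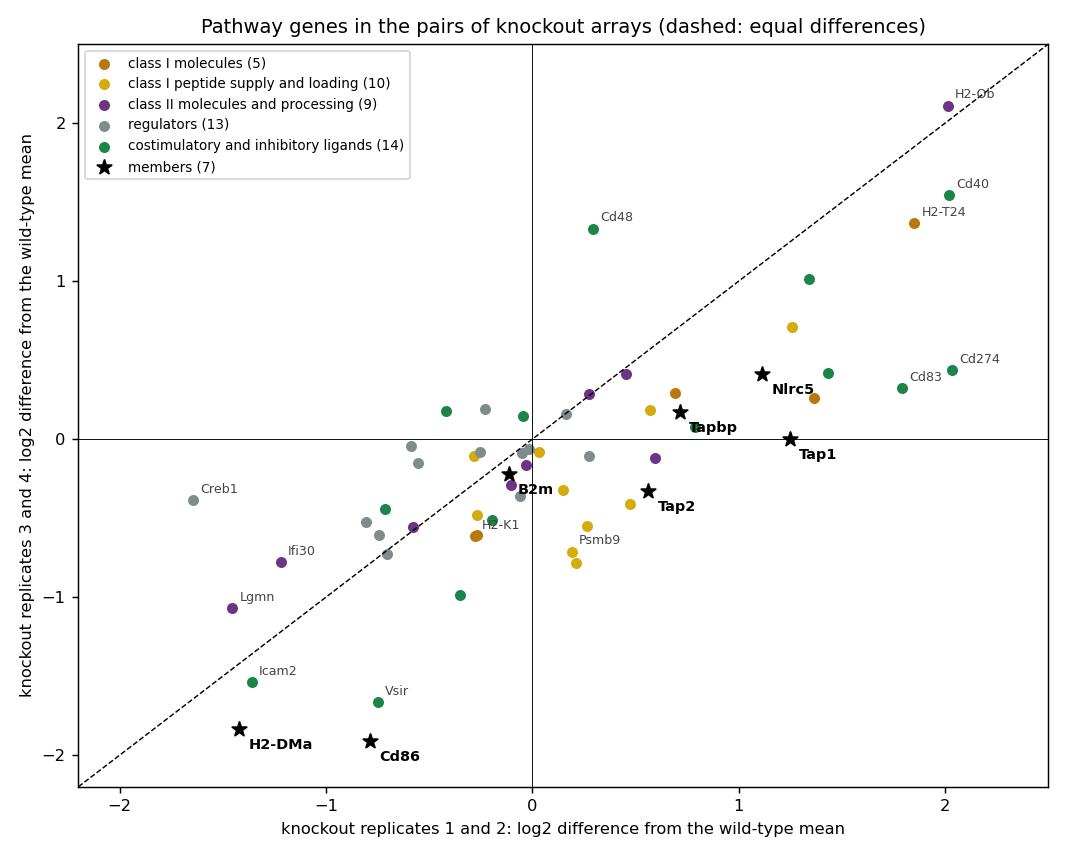
Mean log2 difference from wild type in knockout replicates 1 and 2 (horizontal) against that in replicates 3 and 4 (vertical) for the 51 listed genes, coloured by role, and the 7 members (stars). Both axes share the wild-type mean, and points on the dashed line differ equally in both pairs. All 7 stars lie below the line, Tap2 among the points at the lower right, where the pairs differ in sign, and H2-DMa and Cd86 at the lower left.

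The genes whose values ran most like each member's over the 7 arrays were taken from the 1318 genes with an SD of at least 0.5, as a description of 7 points that fall in 3 clusters. Cd274, the inhibitory ligand PD-L1, came first for Tapbp (Pearson r = 0.999), and it differed from wild type by 2.09, 1.98, 0.42 and 0.45 in knockout replicates 1 to 4. Dusp4 and Tnfrsf12a followed (r = 0.999 each). Tap1 ran with Pla2g5, Bet1l and Rnf213 (r = 0.996, 0.995 and 0.993), and Tap2 with Herc6, Ptpn22 and Med29 (r = 0.994, 0.991 and 0.990). Nlrc5 ran with St6galnac4, Srfbp1 and Eno2 (r = 0.999 each). H2-DMa ran with Ltc4s, Anapc11 and Uqcc3 (r = 0.998 each), Cd86 with Amz1, Cd200r1 and Pet100 (r = 0.992, 0.988 and 0.984), and B2m with C3ar1, C77080 and Vsir (r = 0.973, 0.961 and 0.960).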

How the data were processed

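RNA from 3 wild-type and 4 Gfi1 knockout samples of untreated RAW264.7 cells was hybridised to Affymetrix arrays. The deposited values are intensities per probe set on a linear scale, 1 column per array for 19431 probe sets. RMA is named in the submitters' processing notes, without a version. Its quantile step reduces array-wide differences, and the array medians of the named genes still ran from 7.15 to 7.25 on the log2 scale. Arrays have no read depth, and their number limits the precision.

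Values were taken to log2. Of the probe sets, 17335 had 1 symbol in the platform annotation, 532 had several and 1564 had none, and only the first were used. They covered 9999 genes, each represented by its brightest probe set. Groups were compared with limma 3.58.1 in R 4.3.3 (2 groups, moderated two-sided tests, Benjamini-Hochberg over all 9999 genes, threshold 0.05). Residual degrees of freedom numbered 5, with 2.20 added by the prior. The code was tested on simulated data with independent arrays, which did not copy the likeness within the knockout pairs.

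The members, gene lists and alternatives were chosen with earlier results of these data known. Genes named are the members, Gfi1, per list up to 5 genes past the threshold with the largest difference and the brightest gene, and the 3 genes most like each member. Any other gene was named after its values were seen. Alternatives were quantile normalization, median centring, an offset, a dim-gene filter, an intensity trend, array weights, the mean of probe sets, leaving out arrays, replicate number as a block, and random blocks of similar arrays (duplicateCorrelation, consensus correlation 0.794).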

Additional observations from a re-analysis of the deposited data

How the results depend on the processing

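H2-DMa kept its direction and its call under all 17 alternatives that gave it a value (log2 difference -1.84 to -1.32). Quantile normalization and median centring changed no member's call. B2m (main adjusted p = 0.0683) passed at -0.17 with an offset of 16 (adjusted p = 0.0447), without dim genes (0.0460) and with an intensity trend (0.0178), at -0.21 with array weights (0.0161), and at -0.22 without knockout replicates 1 and 2; its adjusted p ran from 0.0149 to 0.545 over all alternatives. Without that pair Tap2 reversed to -0.33, Tapbp passed at 0.17, and the class I median was 0.00 (0.00275). Without replicates 3 and 4, Tap1 passed at 1.25, Tap2 at 0.56 and Tapbp at 0.72. Tapbp also passed at 0.40 with array weights (adjusted p = 0.0208).

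With random blocks of similar arrays, Nlrc5 (0.76) and Cd86 (-1.35) did not pass, and Cd86 did not pass with the mean of its probe sets (-1.39, adjusted p = 0.0914). Leaving out 1 array, the difference ran from 0.64 to 0.89 for Nlrc5, from -1.60 to -1.16 for Cd86, from 0.40 to 0.87 for Tap1, from -0.03 to 0.27 for Tap2, whose sign turned without knockout replicate 1 or 2, and from 0.35 to 0.54 for Tapbp, which passed without knockout replicate 3 or 4 (adjusted p = 0.0355 and 0.0325). Higher members numbered 0 without dim genes, where Nlrc5, H2-DMa and Cd86 were left out, 0 with random blocks, 2 with array weights, 2 or 4 without the first or the second pair, and 0 to 2 without 1 array. Lower members numbered 1 without dim genes, with the mean of probe sets and with random blocks, 4 without the first pair, and 1 to 2 without 1 array. They numbered 3 with an offset of 16, with an intensity trend and with array weights. Listed pathway genes numbered 14 higher and 19 lower with array weights, and 9 higher and 19 lower with the mean of probe sets. With random blocks 4 were higher and 5 lower. Without the first pair 14 were higher and 23 lower, and without the second 21 were higher and 21 lower. All genes past the threshold numbered 4305 in the main fit, 5171 with array weights and 904 with random blocks. They numbered 5697 without the first pair, 6814 without the second, and 2879 to 4465 without 1 array. The counts of members and listed genes are to be read beside these totals.

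With replicate number as a block, which leaves knockout replicate 4 out of the comparison, Tapbp passed at 0.54 (adjusted p = 0.0379), as it did without that array and no block, and 2 members were higher. The block changed no other member's call, and 3805 genes passed. Mr1 and Tapbpl lost their calls with it (adjusted p = 0.0627 and 0.0752) and Cd83 gained one. Same-numbered arrays deviated from their group means with r = 0.12, -0.09 and 0.11. Knockout replicates 1 and 2 gave nearly the same r with wild-type replicate 1 (0.12 each) and with wild-type replicate 2 (-0.10 and -0.09). The knockout deviations carry the split between the pairs, so these values cannot show whether the numbers pair arrays. No label says that they do, and the numbers were not read as pairing.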
